A study of Mus musculus with 6 samples.

Results

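Genes of the actin cytoskeleton and of focal adhesions were followed by RNA sequencing in sorted epidermal cells of newborn mice. The set was a fixed list of 39 gene symbols for cytoskeletal actin regulators and focal adhesion adaptors, all 39 of which were among the 24453 symbols counted. The cells came from back skin at postnatal day 0 and were sorted as EpCAM-positive, Sca1-positive and high in α6-integrin, a gate for progenitor-rich interfollicular epidermis. Of the 6 libraries, 3 were labelled Control and 3 were labelled Ring1a-/- Ring1b-/-, a double knockout (dKO) of the ubiquitin ligases of Polycomb repressive complex 1 (PRC1). PRC1 keeps developmental genes silent, and the title of the series asks what it does as the skin epithelium develops. The genotype of the controls beyond that word, the strain, any Cre driver and any pooling of animals are not given in the sources used here. C1, C2 and C3 stand for the control-labelled replicates 1 to 3, and K1, K2 and K3 for the dKO-labelled ones. Levels are in CPM, the count of a gene scaled to a common library size. Values written as 3 numbers against 3 numbers follow that order.

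The libraries held 18951665 to 31187270 counts, and the 39 genes together took 0.845 to 1.28% of them. Whether each replicate was a different animal is not stated, and all p-values reflect just the spread among these 6 libraries, which may be technical. A check of the labels with the targeted gene Ring1 gave 30.9, 17.1 and 3.9 CPM against 1.66, 5.2 and 14.2 CPM, and the replicate 3 libraries went against their labels. Rnf2, the symbol of Ring1b, was at 43.2 to 63.2 and 55.4 to 64.0 CPM, which checks no label, because reads outside a deleted part would still be counted. Xist, from the inactive X chromosome of female cells, was high in C3, K1 and K2 (1757 to 6133 CPM). It was low in the others (4.48 to 10.5 CPM), so each group held libraries of both kinds, in unlike number. Xist goes with sex and not with the Ring1a/b genotype, so it checks no label. All directions below are those of the libraries as labelled, and some results are also given for replicates 1 and 2 alone. The basal keratin Krt5 was high in the 6 libraries, as the gate implies, at 18578 to 28244 CPM in the control-labelled and 15665 to 20133 CPM in the dKO-labelled ones. The summed CPM of 9 basal markers was lower without overlap, at 32232.7 to 46948.5 in the control-labelled and 27614.8 to 31376.5 in the dKO-labelled libraries. Of 9 basal markers 2 fell, the transcription factor Trp63 (1760 to 1016 CPM, group means) and the hemidesmosome collagen Col17a1 (3260 to 1955 CPM), and the other 7 did not pass. Of these 7, Krt15 was lower and Epcam higher without overlap (2869 to 1371 and 138 to 268 CPM, group means). Among other cell types, the summed CPM of 4 suprabasal epidermis markers was 1948 to 4658 in the control-labelled and 928 to 3397 in the dKO-labelled libraries, with K1 the lowest. The sum of 6 fibroblast markers was 245 to 791 CPM in the control-labelled and 435 to 728 CPM in the dKO-labelled libraries. The sum of 6 smooth muscle and pericyte markers was 10.3 to 18.9 and 17.3 to 39.5 CPM, and that of 5 immune markers 92.8 to 197 and 41.5 to 160 CPM. The sum of 5 hair follicle markers was 109 to 370 and 170 to 518 CPM, with the top values in C1 and K1, although the hair keratins Krt25 and Krt71 fell. That of 5 Merkel cell markers was 0.612 to 2.63 and 23.3 to 74.3 CPM. The latter came through Krt18 and Sox2, with Atoh1, a defining gene of that cell, at 0.342 CPM or less. The part of any of these cells in the results below was not tested. In bulk samples, fewer cells of a type and less RNA per cell cannot be told apart.

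Actin filaments grow from nucleators such as the Arp2/3 complex and the formins, are bundled by α-actinin and filamin, and are pulled by nonmuscle myosin II under the control of RhoA and its kinases ROCK1 and ROCK2. Where a cell touches the basement membrane, talins and kindlins switch integrins on, and adaptors such as vinculin, paxillin, tensins and the ILK-PINCH-parvin complex tie them to actin. In basal keratinocytes this machinery works beside the hemidesmosomes, which hold keratin filaments instead, and loss of kindlin-1 (Fermt1) is the cause of Kindler syndrome, a skin-blistering disease.

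Most of these genes did not pass the test for a difference between the groups, and those that did were tensins and a kindlin. Of the 38 tested members 2 rose (Tns3 and Fermt2), 1 fell (Tns1) and 35 did not pass. The test was edgeR's quasi-likelihood F test over all 14890 tested genes, with a call where the p adjusted by Benjamini and Hochberg was under 0.05. Among all tested genes 10.2% were called, 7.17% higher and 2.98% lower, and the 3 members make 7.89% of those tested, near that background. Lims2 was the member left untested, with 0 to 38 counts in a library. The median log2 fold change of the members was 0.19, against 0.0004 for all tested genes, and 33 of the 38 (86.8%) had a fitted change of less than 2-fold, against 78.6% of all. Before adjustment, p was under 0.05 for 15 members (39.5%) and for 24.3% of all tested genes. In CPM, 15 members had groups without overlap, 10 higher and 5 lower in the dKO-labelled libraries, and 32.4% of all tested genes did not overlap (17.6% higher, 14.8% lower).

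**Figure D1:**
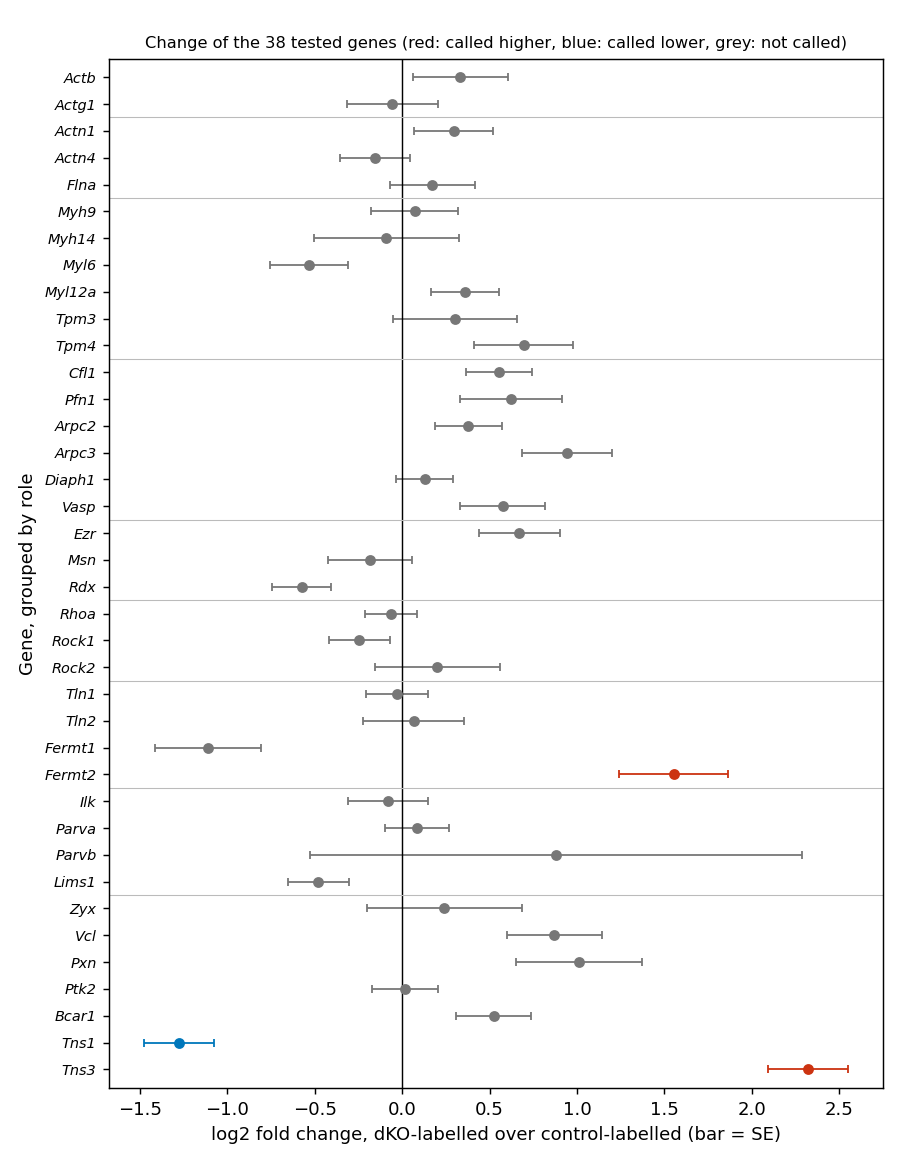
Log2 fold change of the 38 tested genes, dKO-labelled over control-labelled, with bars for the SE of the edgeR model (3 libraries per group) and lines between groups of genes by role. Tns3 at 2.32 and Fermt2 at 1.55 were called higher (red) and Tns1 at -1.27 lower (blue), and the grey points did not pass.

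Tensins link integrin tails to actin filaments, and the 2 listed tensins moved in opposite directions. Tns3 (minus strand of chromosome 11, 8431652 to 8664535, GRCm38) had 32.9, 50.04 and 30.6 CPM against 201, 178 and 188 CPM. Every dKO-labelled library was thus above every control-labelled one, with a narrow spread. The log2 fold change was 2.32 ± 0.23 (SE, n = 3 libraries per group; adjusted p by edgeR = 8.677e-04), a 5.0-fold higher mean. Tns1 (minus strand of chromosome 1, 73910231 to 74124449) had 262, 192 and 191 CPM in the control-labelled and 89.3, 75.6 and 101.7 CPM in the dKO-labelled libraries, again without overlap. It fell by 1.27 ± 0.20 on the log2 scale (SE; adjusted p by edgeR = 0.00595). The 2 calls were kept in all 18 alternative settings, among them replicates 1 and 2 alone (Tns3 2.18, edgeR adjusted p = 0.01995; Tns1 -1.47, 0.04975), and their highest adjusted p were those 2. With offsets for GC and transcript length Tns1 was at -1.87 and Tns3 at 1.93, a setting in which the median of all tested genes was -0.13. Of counts per kilobase of Tns1 and Tns3 together, Tns3 held 15.25, 27.2 and 18.65% against 76.35, 77.1 and 72.6%. The more abundant of these 2 transcripts thus changed from Tns1 to Tns3 in every library as labelled (exact two-sided permutation test, p = 0.1, the smallest that 3 against 3 can give).

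The other 2 tensins were not on the list of 39 but complete the family. Tns4, a short tensin without the actin-binding part, rose from 309, 295 and 246 CPM to 735, 498 and 542 CPM (log2 fold change 1.06 ± 0.20, SE; adjusted p by edgeR = 0.0126). Tns2 had 13.2 to 23.7 CPM in the control-labelled and 23.4 to 51.2 CPM in the dKO-labelled libraries, which overlap, and did not pass (edgeR adjusted p = 0.141). Per kilobase Tns4 was the main tensin throughout, with a mean of 73.2% of the family in the control-labelled and 79.8% in the dKO-labelled libraries. The share of Tns1 went from 17.9 to 3.95% and that of Tns3 from 4.53 to 12% (means of 3 libraries), with no overlap between groups for either.

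Kindlins bind integrin β tails next to talin, and kindlin-1 is the main epithelial form while kindlin-2 (Fermt2) is widespread in other tissues. Fermt2 (minus strand of chromosome 14, 45458795 to 45530118) had 8.85, 6.91 and 7.73 CPM against 32.8, 16.8 and 19.3 CPM. It was low in every control-labelled library and highest in K1. Its log2 fold change was 1.55 ± 0.31 (SE; adjusted p by edgeR = 0.0161). The call ended without C2 (0.0572), without C3 (0.0639), with replicates 1 and 2 alone (0.117) and in a fit that held Xist level constant (0.0610, edgeR adjusted p). Fermt1 (minus strand of chromosome 2, 132904389 to 132945906) had 452, 245 and 265 CPM in the control-labelled and 98.7, 166 and 181 CPM in the dKO-labelled libraries. The groups did not overlap, yet C1 was well above C2 and C3. At a log2 fold change of -1.11 ± 0.30 (SE) Fermt1 just missed the threshold (edgeR adjusted p = 0.0527), and in 5 of 18 alternative settings it passed, lower each time.

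Fermt1 remained the larger of the pair in all 6 libraries. Of the counts per kilobase of Fermt1 and Fermt2 together, Fermt2 held 2.11, 3.0 and 3.10% against 26.7, 10.02 and 10.5%. The difference of the means was 13.01 percentage points, and 7.53 points without K1 (exact two-sided permutation test, p = 0.1 for each). Fermt3, the kindlin of blood cells, was at 1.80 to 6.84 CPM in the 6 libraries and did not pass (edgeR adjusted p = 0.335).

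**Figure D2:**
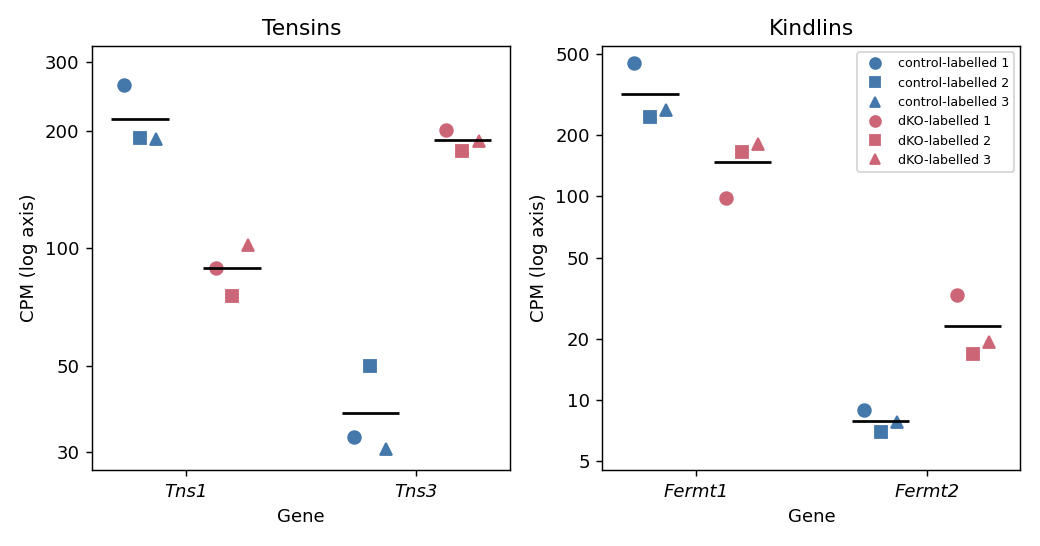
CPM of Tns1, Tns3, Fermt1 and Fermt2 in each library on log axes, with blue points for the control-labelled and red points for the dKO-labelled libraries, symbols for the replicate number and lines at the group means. No group overlaps for any of the 4 genes, Tns3 and Fermt2 being higher and Tns1 and Fermt1 lower in the dKO-labelled libraries.

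PRC1 is best known at promoters rich in CpG dinucleotides, so the 250 bases before the start sites of these 4 genes are shown, 5′ to 3′ on the gene's strand, with each CpG in capitals. They are RefSeq promoters of GRCm38.p6: Tns1 at chr1:74124549-74124798, Tns3 at chr11:8664536-8664785, Fermt1 at chr2:132946037-132946286 and Fermt2 at chr14:45530066-45530315, all on the minus strand. Start sites are those of RefSeq and can differ from the GENCODE gene ends given above.
Tns1: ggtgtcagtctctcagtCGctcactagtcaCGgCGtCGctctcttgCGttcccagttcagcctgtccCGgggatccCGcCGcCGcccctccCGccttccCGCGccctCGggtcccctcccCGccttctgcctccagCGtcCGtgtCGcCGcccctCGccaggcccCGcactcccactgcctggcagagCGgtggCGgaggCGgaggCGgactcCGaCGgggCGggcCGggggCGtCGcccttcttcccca
Tns3: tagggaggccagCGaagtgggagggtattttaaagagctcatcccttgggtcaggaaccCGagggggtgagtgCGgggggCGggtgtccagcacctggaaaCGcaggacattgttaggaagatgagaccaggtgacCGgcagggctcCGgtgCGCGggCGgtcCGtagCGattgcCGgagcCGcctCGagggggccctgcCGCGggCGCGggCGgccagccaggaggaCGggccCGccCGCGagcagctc
Fermt1: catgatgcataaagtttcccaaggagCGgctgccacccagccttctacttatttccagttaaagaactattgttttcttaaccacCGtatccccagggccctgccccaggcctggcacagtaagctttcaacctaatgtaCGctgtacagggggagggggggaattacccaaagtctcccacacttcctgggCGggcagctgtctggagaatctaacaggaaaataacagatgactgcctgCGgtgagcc
Fermt2: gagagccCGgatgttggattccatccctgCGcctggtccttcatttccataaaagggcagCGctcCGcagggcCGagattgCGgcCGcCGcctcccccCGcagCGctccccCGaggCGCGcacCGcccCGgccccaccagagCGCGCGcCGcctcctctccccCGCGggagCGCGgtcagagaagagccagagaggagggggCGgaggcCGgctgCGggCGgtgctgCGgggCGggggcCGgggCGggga

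The printed windows hold 30 CpGs for Tns1, 24 for Tns3 and 31 for Fermt2, but 5 for Fermt1. CpG-rich windows were thus upstream of the fallen Tns1 as well as of the risen Tns3 and Fermt2. The median was 6 CpGs over 32841 RefSeq promoters of the same length and 18 over the 39 windows of the 31 members with a promoter in that table. The ratio of observed to expected CpGs was 0.901 for Tns1, 0.837 for Tns3, 0.859 for Fermt2 and 0.293 for Fermt1. No binding or histone data are used here, so these are descriptions of sequence.

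The cytoplasmic actins and the proteins that crosslink their filaments did not pass. Actb, β-actin, had 1223, 1355 and 1636 CPM against 2524, 1548 and 1237 CPM. K1 alone lay above the control-labelled range, and K3 lay within it (log2 fold change 0.33 ± 0.27, SE; adjusted p by edgeR = 0.505). Actg1, γ-actin, was at 18.0 to 21.9 CPM in the control-labelled and 13.3 to 21.6 CPM in the dKO-labelled libraries. Of its 100-base stretches, the length of a read, 29.9% recur in other annotated transcripts, mainly pseudogenes, so its low counts may depend on how such reads were counted. The crosslinkers Actn1, Actn4 and Flna had log2 fold changes of 0.29, -0.16 and 0.17 (edgeR adjusted p = 0.473 to 0.731), and the groups overlapped for all 3.

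Of the 6 members for myosin II and tropomyosin, none passed (edgeR adjusted p = 0.173 to 0.923), while 2 had an unadjusted p under 0.05 and DESeq2 and limma-voom called none of them. Myl6, the essential light chain of nonmuscle myosin, had 52.3, 50.2 and 53.4 CPM against 46.7, 31.7 and 29.3 CPM. It was lower in each dKO-labelled library without overlap (log2 fold change -0.53 ± 0.22, SE; adjusted p by edgeR = 0.183), and without K1 it passed (-0.77, edgeR adjusted p = 0.0320). Tpm4, a tropomyosin of the cell cortex, had 222, 295 and 311 CPM in the control-labelled and 649, 385 and 306 CPM in the dKO-labelled libraries, which overlap through K3. The heavy chain Myh9 did not pass, at 573 ± 59.2 and 602 ± 217 CPM (mean ± SD, n = 3), the wide spread of the second group coming from K1 with 853 CPM. Myl12a, a regulatory light chain, was at 96.6 to 137 and 131 to 166 CPM, and shares 16.3% of its 100-base stretches with other annotated transcripts, mainly its neighbour Myl12b. Tpm3 was at 73.3 to 108 and 71.8 to 191 CPM, and Myh14 at 7.04 to 12.5 and 4.53 to 11.04 CPM.

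The genes of filament assembly and turnover all had positive log2 fold changes, and none of the 6 passed (edgeR adjusted p = 0.0525 to 0.690). Of these, 3 had an unadjusted p under 0.05, and DESeq2 and limma-voom each called 1, Arpc3. The list was described by its median of 0.56 on the log2 scale, beside 0.0004 for all tested genes. Arpc3, a subunit of the Arp2/3 nucleator, had 18.3, 19.5 and 13.2 CPM against 27.1, 29.7 and 41.4 CPM. The dKO-labelled libraries were all higher, and the change of 0.94 ± 0.26 (SE) missed the threshold narrowly (edgeR adjusted p = 0.0525) and passed in 6 of 18 alternative settings. With replicates 1 and 2 alone Arpc3 was at 0.58 (edgeR adjusted p = 0.4685). Cfl1, cofilin, which severs old filaments, had 300.5, 303 and 300.2 CPM against 557, 395 and 376 CPM (log2 fold change 0.56 ± 0.19, SE; adjusted p by edgeR = 0.107). Cofilin was nearly equal in the 3 control-labelled libraries, and K1 was the highest. Without K1 the log2 fold change of Cfl1 was 0.36 (edgeR adjusted p = 0.137). Exons of the antisense gene Snx32 overlap 16.5% of the exon bases of Cfl1. Vasp, which elongates filaments at adhesions, had 50.7, 74.96 and 89.97 CPM against 129.6, 94.8 and 96.5 CPM (log2 fold change 0.57, edgeR adjusted p = 0.193). It went to 0.12 with the GC and length offset and to 0.21 with replicates 2 and 3 alone (edgeR adjusted p = 0.809 and 0.334). Its sign was kept in all 18 alternative settings. Pfn1, profilin, which feeds actin monomers to growing ends, had 332, 329 and 350 CPM against 789, 431 and 336 CPM, so K3 lay within the control-labelled range. Arpc2 did not overlap (240.2 to 318 and 336 to 448 CPM), and the formin Diaph1 overlapped (76.97 to 87.9 and 86.2 to 92.0 CPM).

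The 3 membrane linkers of the ezrin, radixin and moesin family, which tie cortical actin to the plasma membrane, did not move together. Ezr had 390.1, 483 and 450 CPM against 951, 583 and 571 CPM. Rdx had 213, 245 and 287 CPM in the control-labelled and 175, 167 and 158 CPM in the dKO-labelled libraries. Ezrin was thus higher and radixin lower in every dKO-labelled library, and neither passed (log2 fold changes 0.67 ± 0.23 and -0.58 ± 0.17, SE; adjusted p by edgeR = 0.111 and 0.0693). Without C1, Rdx passed (edgeR adjusted p = 0.0429). With replicates 1 and 2 alone Ezr was at 0.80 and Rdx at -0.43 (edgeR adjusted p = 0.2932 and 0.5125). Moesin, Msn, was at 536 to 772 and 440 to 725 CPM and overlapped. Set against ezrin within each library, radixin took 26.5 to 31.1% of the counts per kilobase of the 2 in the control-labelled and 11.5 to 16.9% in the dKO-labelled libraries, and moesin 38.1 to 47.1% and 28.4 to 30.4%.

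RhoA, the switch for contraction, and its kinases did not pass. Rhoa had 221, 218 and 237 CPM against 225, 221 and 200.4 CPM, a log2 fold change of -0.06 ± 0.15 (SE; adjusted p by edgeR = 0.843). Rock1 was at 236 to 251 and 180 to 249 CPM, and Rock2 at 391 to 453 and 302 to 823 CPM. For Rock2 the top value was K1, and K2 and K3 (331 and 302 CPM) lay below every control-labelled library. With replicates 2 and 3 alone Rock1 and Rock2 were called lower (-0.40 and -0.47, edgeR adjusted p = 0.0319 and 0.0203), while in the full comparison their log2 fold changes were -0.24 and 0.20 (edgeR adjusted p = 0.447 and 0.795).

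The talins and the ILK complex did not pass. Tln1, the main talin here, had 193, 178 and 189 CPM against 219, 158 and 172 CPM (log2 fold change -0.03 ± 0.18, SE), and with the GC and length offset it was called lower (-0.63, edgeR adjusted p = 0.0397), a setting in which the median of all tested genes was -0.13. Tln2 was at 16.9 to 24.0 and 14.2 to 27.4 CPM. The pseudokinase Ilk was at 57.6 to 76.2 and 53.1 to 83.2 CPM, but 89.7% of its exon bases are also exons of Taf10 or Rrp8 on the other strand. No source used here gives the strand of counting, so reads of Ilk and of those genes cannot be told apart. Parva, α-parvin, was at 69.9 to 89.1 and 77.4 to 96.1 CPM. Lims1, the adaptor PINCH-1, had 143, 119.6 and 135 CPM against 109, 93.0 and 82.8 CPM, without overlap (log2 fold change -0.48 ± 0.18, SE; adjusted p by edgeR = 0.135). Parvb and Lims2 were nearly absent, at 0 to 4.48 and 0 to 1.30 CPM. Zero counts in a library allow up to 3, or 0.0975 to 0.154 CPM at these depths.

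Of the adhesion scaffold and signalling genes other than the tensins, none of 5 passed. Vcl, vinculin, which reinforces adhesions under load, had 150, 185 and 203 CPM against 470, 280.5 and 231 CPM (log2 fold change 0.87 ± 0.27, SE; adjusted p by edgeR = 0.0826). Pxn, paxillin, an early scaffold of the adhesion, had 95.3, 80.3 and 85.6 CPM against 297, 117 and 113 CPM (1.01 ± 0.36, SE; adjusted p by edgeR = 0.122). Both were higher in every dKO-labelled library, with K1 far above K2 and K3. With replicates 1 and 2 alone Vcl was at 1.16 and Pxn at 1.22 (edgeR adjusted p = 0.1328 and 0.2189). Pxn went to 0.40 without K1 and to 0.38 with the GC and length offset (adjusted p by edgeR = 0.157 and 0.501). DESeq2 called both higher (0.0265 and 0.0433, DESeq2 adjusted p), and 25.5% of the exon bases of Vcl overlap exons of the antisense gene Ap3m1. Bcar1, the docking protein p130Cas, had 18.5, 22.7 and 21.6 CPM against 26.2, 29.0 and 35.1 CPM (0.52 ± 0.21, SE; adjusted p by edgeR = 0.174), and turned to -0.15 with the GC and length offset (edgeR adjusted p = 0.701). Focal adhesion kinase, Ptk2, did not pass, at 75.8 ± 11.9 and 76.6 ± 7.49 CPM (mean ± SD, n = 3; edgeR adjusted p = 0.973). Zyx, zyxin, a stress-fibre repair protein, was at 82.3 to 139 CPM in the control-labelled libraries and at 231 CPM in K1 and 73.5 and 73.8 CPM in K2 and K3.

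K1 was the highest of the dKO-labelled libraries in 30 of the 38 tested members (78.9%), against 39.8% of all tested genes. The members took 1.28% of the counts in K1, 0.907% in K2 and 0.845% in K3, and 0.853, 0.869 and 0.966% in C1, C2 and C3. Relative to the control-labelled means, the median member was 0.40 higher on the log2 scale in K1, 0.00574 higher in K2 and 0.07 lower in K3 (-0.0712). The small upward shift of the whole set therefore rested on K1. Without K1 the median log2 fold change of the tested members was -0.04 in place of 0.19, and with replicates 2 and 3 alone it was -0.07. With replicates 1 and 2 alone, which keep K1, that median was 0.32. Without K1 the groups did not overlap for 10 members higher and 13 lower, against 10 and 5 with it. All tested genes then had 24.1% higher and 21.8% lower without overlap. The GC and length offset took the median of the members to -0.10 and that of all tested genes to -0.13. The 3 called members kept their direction in each of these settings.

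**Figure D3:**
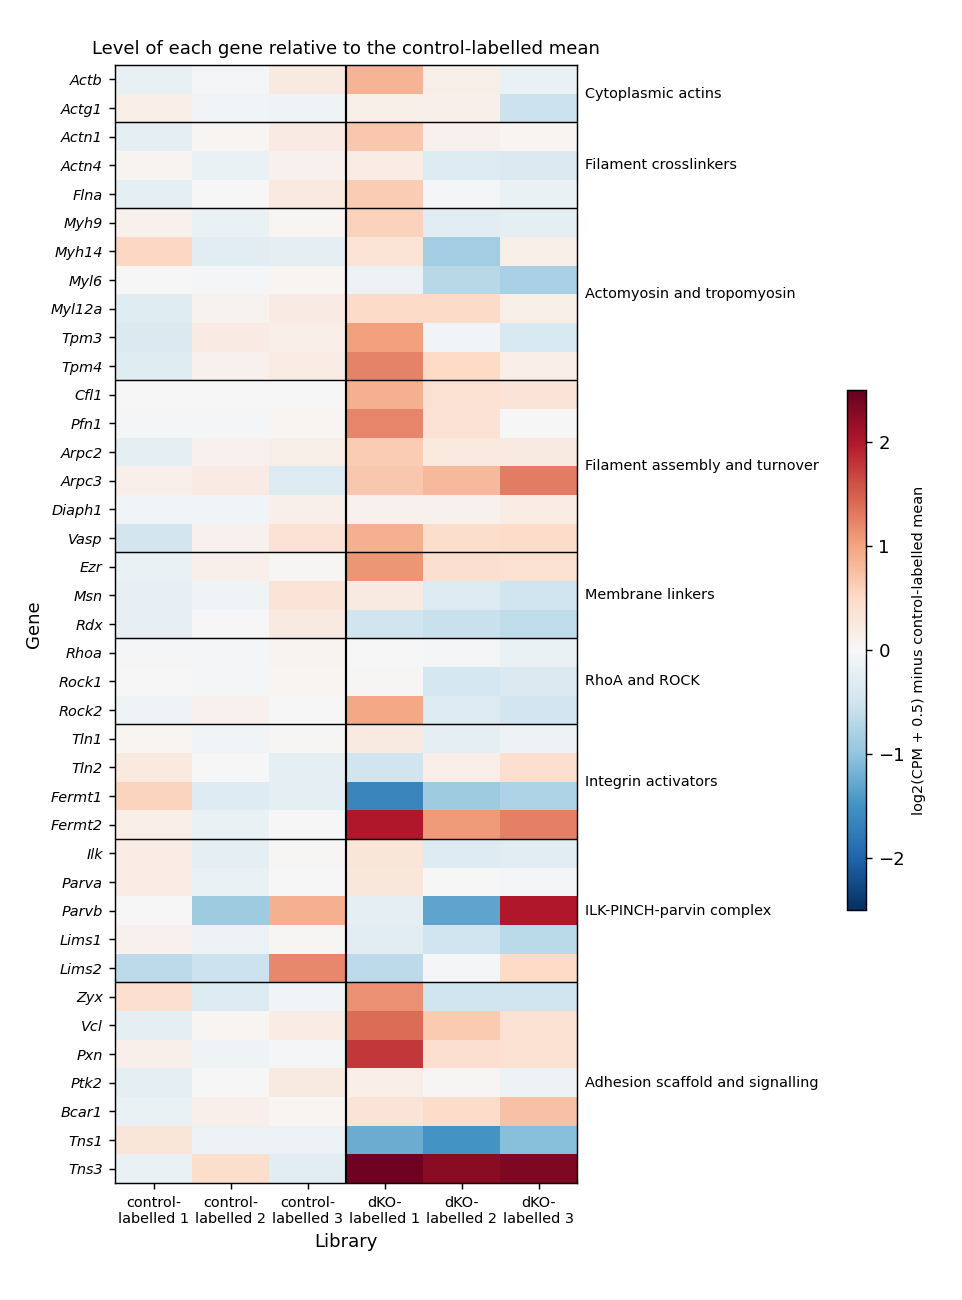
Level of each of the 39 genes in each library as log2(CPM + 0.5) minus its control-labelled mean, in rows grouped by role, with red for higher and blue for lower values. The first dKO-labelled column is the reddest, and Tns3, Fermt2, Tns1 and Fermt1 differ from the control-labelled libraries in all 3 dKO-labelled columns.

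Balance within 12 pairs of members was followed as the share of counts per kilobase, which compares genes inside 1 library. The groups did not overlap for 6 of the 12 pairs. These were Tns3 with Tns1, Fermt2 with Fermt1, the 2 pairs with ezrin, Tpm4 with Tpm3 (88.3 to 89.3% and 90.4 to 92.2% for Tpm4) and Actn4 with Actn1 (86.8 to 90.4% and 84.4 to 85.1% for Actn4). Of 100-base stretches, 15.8% of those of Tpm3 and 9.22% of those of Tpm4 recur in other annotated transcripts. The small shift of that pair may depend on how such reads were counted. The tensin pair had the widest shift, from 20.4 ± 6.15 to 75.4 ± 2.42% for Tns3 (mean ± SD, n = 3), and the other 5 shifted by 2.68 to 13.6 percentage points in size. For the pairs of talins, parvins, PINCH proteins, ROCK kinases, actins and Myh9 with Myh14 the groups overlapped. With 3 against 3 libraries the exact permutation test cannot go below p = 0.1, and the 6 pairs without overlap had an adjusted p of 0.2 over the 12 pairs.

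**Figure D4:**
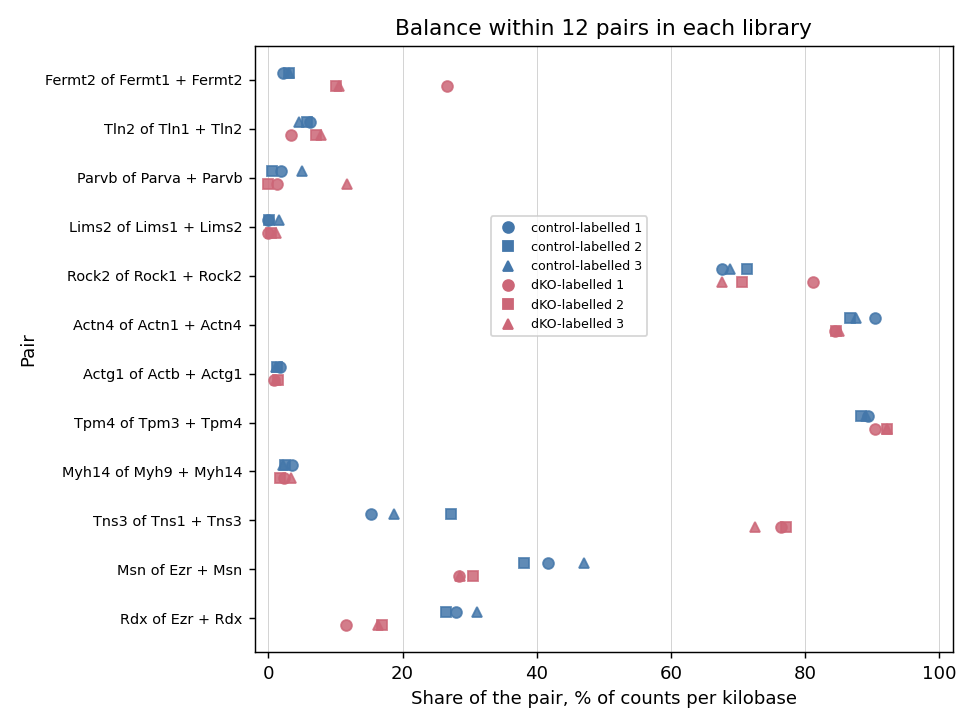
Share of the first-named gene in the counts per kilobase of each of 12 pairs, in percent, with blue points for the control-labelled and red points for the dKO-labelled libraries and symbols for the replicate number. Tns3 moves from 15.25 to 27.2% up to 72.6 to 77.1%, and no other pair moves by more than 13.6 percentage points in its means.

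Per kilobase, the control-labelled epidermis expressed Actb most, at 524 CPM per kilobase (456 to 611). Next came Arpc2, Pfn1, Ezr, Tpm4, Actn4, Cfl1 and Msn, at means of 142 to 99.05 CPM per kilobase. Neighbours in this order mostly overlapped, as for Arpc2 (118 to 156), Pfn1 (137 to 146) and Ezr (119 to 147). Fermt1 had rank 10 at 56.25 and Rdx followed at 53.5 CPM per kilobase, with overlapping ranges. Tns3 was at 3.38 and Fermt2 at 1.51 CPM per kilobase, so the 2 members that rose ranked 34 and 35 of 39. In the dKO-labelled libraries they were at 16.9 and 4.42 CPM per kilobase, and Tns1 at 5.55 against 13.4.

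Several relatives of the members that were not on the list of 39 did change. Flnc, the filamin of muscle, rose from 2.18, 9.79 and 4.17 to 266, 127 and 104 CPM (4.95 ± 0.61, SE; adjusted p by edgeR = 0.00208). Among myosin II heavy chains Myh10 rose from 22.9 ± 8.58 to 124 ± 18.8 CPM (mean ± SD, n = 3), and the share of Myh9 went from 91.0 to 95.1% to 74.2 to 81.4% of the family. Among tropomyosins Tpm1 and Tpm2 rose (1.89 ± 0.32 and 2.18 ± 0.36 on the log2 scale, SE), and the share of Tpm4 went from 63.2 to 66.5% to 43.7 to 46.6%. The groups did not overlap for the share of Myh9 or of Tpm4, each the most abundant of its family per kilobase in the control-labelled libraries. The summed smooth muscle and pericyte markers overlapped between the groups, and edgeR called 0 of the 5 tested, of which 1 had an unadjusted p under 0.05 (Acta2, also among the contractile partners below). Acta2 (1.47 to 4.88 CPM in the control-labelled and 7.67 to 26.6 CPM in the dKO-labelled libraries) and Tagln (5.13 to 5.21 and 6.34 to 7.82 CPM) were higher without overlap. Pdgfrb (0.338 to 1.09 and 1.07 to 2.66 CPM), Myh11 (0.481 to 4.58 and 0.455 to 1.96 CPM) and Rgs5 (2.19 to 4.48 and 0.0515 to 2.63 CPM) overlapped. Whether such cells had a part in the rises above was not tested.

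**Figure D5:**
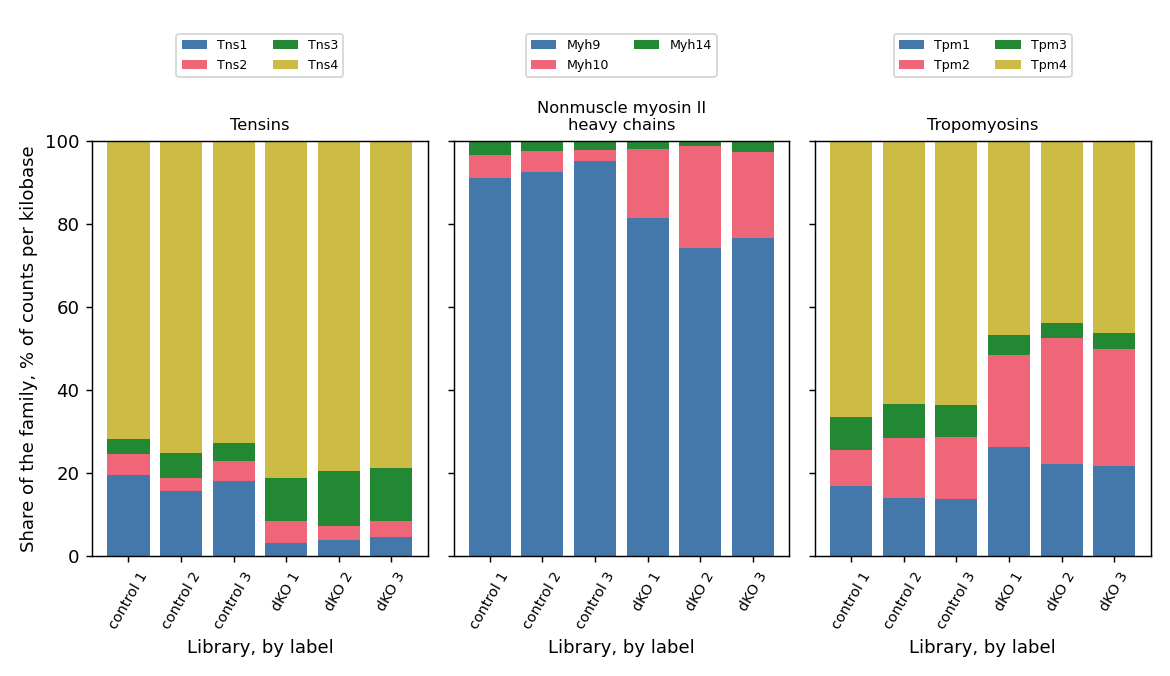
Share of each gene in the counts per kilobase of 3 families (tensins, nonmuscle myosin II heavy chains, tropomyosins) as stacked bars from 0 to 100%, 1 bar per library. In the dKO-labelled libraries the shares of Tns1, Myh9 and Tpm4 are smaller and those of Tns3, Myh10, Tpm1 and Tpm2 larger, with no overlap between groups.

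The rest of the pathway was read from 6 further lists, beside the 10.2% of all tested genes that were called. Of 34 tested genes of actin nucleation none fell and 5 were called higher, of which 4 had counts in both groups. These 4 were the formins Fmnl2 (52.6 to 174 CPM, group means) and Inf2 (60.4 to 209 CPM), the nucleator Spire1 (17.0 to 69.0 CPM) and Cyfip2 of the WAVE complex (3.68 to 19.1 CPM). The other, Wasf3, a WAVE protein named for completeness after its values were seen, had 0 counts over the control-labelled and 127 over the dKO-labelled libraries, at least 42.2-fold higher if a group total of 3 counts is taken as the floor. It met the count filter through the dKO-labelled libraries alone, and with a filter of 50 counts in 3 libraries 4 genes of the list were called higher. Of 43 genes of filament turnover and bundling 5 rose and 3 fell, among them Coro2a (20.5 to 61.1 CPM), Flnc and Pls1, a plastin, which fell from 11.6 to 1.81 CPM. Of 41 further focal adhesion adaptors 3 rose (Kank2, Tns4 and the paxillin relative Tgfb1i1) and 1 fell, Ajuba, from 158 to 85.4 CPM. Of 23 integrins 1 fell, Itga2, a chain of the collagen receptor, from 56.3 to 30.3 CPM, and 0 rose. Of 18 contractile partners 5 rose (Myl9, Cnn3, Myh10, Tpm2 and Tpm1) and 0 fell. Of 20 regulators and targets of SRF and YAP, the transcription factors that read actin and tension, edgeR called 0. Of these 20, 6 had an unadjusted p under 0.05, and DESeq2 called 1 higher and 1 lower. Actomyosin genes such as Myl9, Tpm1 and Tpm2 were counted with the contractile partners. The 0 therefore covers the genes of this list alone and not every gene that SRF may drive. The median log2 fold changes of the 6 lists were 0.25, 0.08, 0.06, 0.13, 0.77 and -0.26 in the order given. With replicates 1 and 2 alone the higher counts were 3, 3, 0 and 5 for nucleation, turnover and bundling, adhesion adaptors and contractile partners. Without C3 adhesion adaptors had 1 higher gene, and without C1 turnover and bundling had 3. The lower calls of adhesion adaptors and of integrins, 1 each, became 0 without C2, without C3, without K2 and with replicates 1 and 2 alone, and that of integrins also with Xist held constant. The 3 lower genes of turnover and bundling became 1 without C1, C2 or K2. With the GC and length offset the balance turned, to 3 higher and 5 lower for turnover and bundling and 2 higher and 5 lower for adhesion adaptors.

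SRF binds the CArG box (CC, 6 bases of A or T, GG, which reads the same on both strands), and 4 of the 39 member windows of 250 bases held one (10.3%), against 1.47% of all 32841 promoter windows. The matches are printed with 10 bases on each side and the box in capitals, on the gene's strand of GRCm38.p6, since the actin pathway is the textbook home of this motif. They lie at chr11:120348576-120348585 (Actg1), chr10:128493050-128493059 (Myl6), chr14:20929171-20929180 (Vcl) and chr14:45530260-45530269 (Fermt2).
Actg1: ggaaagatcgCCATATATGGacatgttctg
Myl6: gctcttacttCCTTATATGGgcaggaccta
Vcl: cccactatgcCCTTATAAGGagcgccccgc
Fermt2: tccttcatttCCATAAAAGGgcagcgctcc

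The boxes end 81, 41, 218 and 195 bases before the start sites of Actg1, Myl6, Vcl and Fermt2. Another Myl6 window, nearer the 5′ end of its GENCODE gene (chr10:128493887-128494136), held no box. The log2 fold changes of the 4 genes were -0.06, -0.53, 0.87 and 1.55, of which that of Fermt2 passed. Srf itself was at 92.7 to 134 CPM in the control-labelled and 48.0 to 162 CPM in the dKO-labelled libraries. It was highest in K1 and was not called (edgeR adjusted p = 0.775). The part of SRF in any of these levels was not tested. Of other motifs searched on both strands, the Sp1 motif GGGCGG was in 26 of the 39 windows (66.7%, against 32.7% of all), the TEAD motif GGAATG in 5 (12.8%, against 12.6%) and the TATA box TATAAA in 2 (5.13%, against 12.4%). A match of letters is not a bound site.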

How the data were processed

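Counts per gene symbol were deposited by the authors, 1 file per library, as whole numbers with no summary entries. Per the labels' protocols, 10 ng of RNA was amplified (Nugen Ovation V2) and sequenced as single reads of 100 nucleotides. The submitters' processing notes name HTSeq 0.6.1, TopHat2 2.0.13, DESeq2 1.6.3, Cufflinks 2.2.1 and the mm10 build, without their roles. The annotation and the strand setting for counting are not given in any of the sources used here. Reads shared between overlapping or near-identical genes could have been counted for 1 of them or for none.

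All genes were tested together with edgeR 4.0.16 in R 4.3.3 (TMM, factors 0.927 to 1.04; filterByExpr, minimum count 10 and total 15; quasi-likelihood F test, two-sided, no covariate; prior count 0.125; biological coefficient of variation 38.3%). CPM uses the TMM library sizes. A value after ± is the SD of 3 libraries for CPM and shares, and the SE from the fit for fold changes. Alternatives used limma 3.58.1, DESeq2 1.42.0, other scalings and filters, a GC and length offset (splines of 5 degrees of freedom), a replicate block and left-out libraries. The steps were tested on simulated counts. Gene models are GENCODE M21 on GRCm38, in which 23753 of 24453 symbols matched 1 gene, and promoters are RefSeq's. Length is the union of exons. Floors for a count of 0 cover counting error only. Members were given library by library if called, or if the groups did not overlap with a log2 fold change of 0.5 or more in size, with family partners, and from each further list up to 4 called genes with the smallest p. Some genes and 1 list that these rules name are not reported here. The members and lists were chosen with earlier results of these data known. Families beyond the 12 pairs, and any gene named outside these rules, were picked with their values in view. Figures used matplotlib 3.10.9 in Python 3.11.15.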

Additional observations from a re-analysis of the deposited data

How the results depend on the processing

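The count of called members ranged from 1 to 3 higher and from 1 to 2 lower when 1 library was left out, beside 811 to 1393 genes called in all (main values 2, 1 and 1512). The lower end came without C2 or C3, where Fermt2 was lost. More members passed with DESeq2 (5 higher and 3 lower, 2535 genes in all) and with replicates 2 and 3 alone (5 and 7, 2694 genes), and fewer with replicates 1 and 2 alone (1 and 1, 439 genes). Lower members numbered 2 without a count filter and with limma-voom and 3 with the GC and length offset. The offset moved the share of higher calls among all genes from 70.6 to 50.03% and turned Bcar1 to -0.15, and the cause was not tested. With the Xist level as a covariate 816 genes were called, with 2 members higher, Tns3 and Arpc3, and 1 lower. With a replicate block 1451 genes were called, and the called members were the same 3. Same-numbered libraries of the 2 groups deviated together with correlations of 0.175, 0.228 and 0.0773, above the -0.189 to 0.00103 of differently numbered ones. No source used here says that the numbers pair libraries, so the main fit did not pair them. Tns1 and Tns3 passed in all 18 alternatives. Depth limits Parvb and Lims2, with at most 138 counts in a library.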
